A study of Mus musculus with 90 samples.

Results

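Fst, Crabp2, Pmaip1, Ly6i and Ltb4r1 are 5 mouse genes grouped because their RNA ratios at 4 h were higher in RAW 264.7 macrophages given lipopolysaccharide with interferon gamma than in those given lipopolysaccharide alone, or exceeded the sum of both single treatments. They were read by 9 of the 16281 probes of a custom Agilent oligonucleotide array, and all 5 entered the 9760 named genes that were compared, which with probes lacking a gene name made 11600 features. RAW 264.7 is a mouse macrophage-like cell line. The choice used the 4 h values of LPS+IFG, LPS and IFG, so those values are given here as a description with no test, while the 1 h and 2 h samples and the 2MA groups took no part in it.

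The treatments were LPS+IFG (100 ng/ml lipopolysaccharide, LPS, with 5 nM interferon gamma, IFG), LPS+2MA (100 ng/ml LPS with 500 µM 2-methyl-thio-ATP, 2MA, an ATP analogue), LPS (100 ng/ml, with 100 pM lipid binding protein), IFG (5 nM) and 2MA (500 µM). The reference of each array was RNA of untreated RAW 264.7 cells kept in medium for the same time. Cells were taken after 1, 2 or 4 h, which makes 15 groups of 3 replicates, and each replicate is the mean of 2 dye-swapped arrays of a numbered set. The labels list lipid binding protein with LPS alone but not with LPS+IFG or LPS+2MA, so a difference from the LPS group cannot be told apart from that difference in the medium. They name no clone or passage. Nothing in them ties a set to its own culture, so p-values measure only the spread between sets, which may be technical. Values are log2 ratios of treated over untreated RNA, in which 1 is a 2-fold higher and -1 a 2-fold lower level in treated cells.

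LPS is a bacterial cell wall component that macrophages sense through TLR4, which activates NF-kB and interferon regulatory factors. Interferon gamma, made by T cells and natural killer cells, acts through its own receptor on the cell surface, and macrophages given both signals are known to induce some genes more than with either alone. The genes have unlike roles. Follistatin (Fst) is a secreted protein that binds activins and blocks them. Crabp2 is a cytosolic carrier that hands retinoic acid to its nuclear receptors. Pmaip1, also called Noxa, is a pro-apoptotic member of the BCL2 family with a BH3 domain only. Ltb4r1 is the high-affinity receptor for leukotriene B4, a lipid that attracts leukocytes. Ly6i belongs to the Ly6 family of small membrane-anchored surface proteins.

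Of the 5, 1 (Ltb4r1) matched a RefSeq promoter window, which runs from 250 bases before to 50 bases after the start site, counted with the start site as base 0. Ltb4r1 had the highest IFG value of the 5 at 1 h, but its window is shown because no other gene of the 5 had one. It is on the plus strand of GRCm38.p6, and capitals mark matches to the motifs named next.
Ltb4r1, chr14:55765712-55766011: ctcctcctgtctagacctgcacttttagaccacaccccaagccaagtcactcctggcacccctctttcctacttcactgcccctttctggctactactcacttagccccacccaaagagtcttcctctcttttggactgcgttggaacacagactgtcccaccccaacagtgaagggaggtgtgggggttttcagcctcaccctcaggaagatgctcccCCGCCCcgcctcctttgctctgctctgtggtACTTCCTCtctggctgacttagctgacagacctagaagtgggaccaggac

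Both strands were searched for the interferon element ISRE (GAAA, any 2 bases, GAAA), NF-kB, AP-1 (TGANTCA), PU.1 (GAGGAAGT) and the GC box (GGGCGG). The Ltb4r1 window held a GC box from -31 to -26 and a PU.1 motif from 0 to 7, and no ISRE, NF-kB or AP-1 motif. Of 32851 RefSeq mouse windows of this length, 3.44% held an ISRE, 11.2% an NF-kB, 7.81% an AP-1, 3.20% a PU.1 and 35.7% a GC box motif. A match is only a run of letters, and the absence of a motif covers only this window.

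At 4 h the 5 genes fell into separate patterns. Fst and Crabp2 stayed near the untreated level with LPS or IFG alone and were 5.69-fold to 6.61-fold above it with both. Pmaip1 was at 2.00-fold with IFG alone and at 6.01-fold with both. Ltb4r1 and Ly6i were already high with IFG alone, at 4.97-fold and 22.6-fold, and near 1 with LPS. For Ly6i the value was no higher with LPS+IFG (18.7-fold) than with IFG, so the name of an amplified gene describes its difference from LPS and not from IFG.

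**Figure D1:**
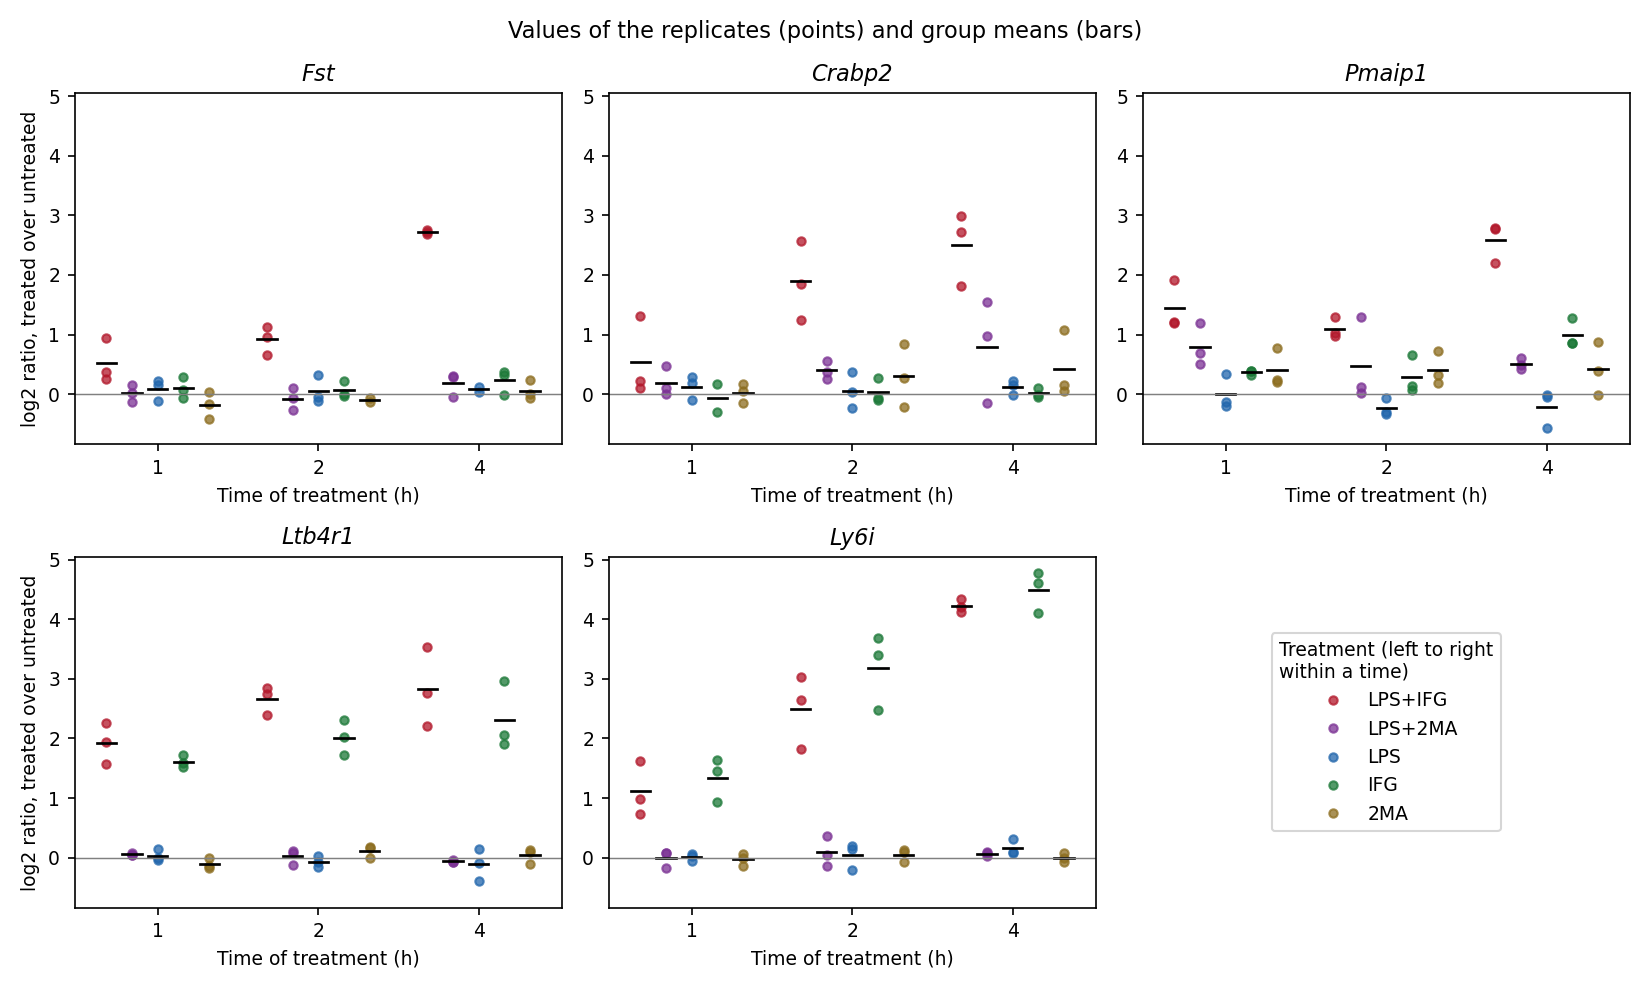
log2 ratio of treated over untreated RNA (y axis) of each replicate (points) and mean of each group (bars) for the 5 genes, at 1, 2 and 4 h (x axis); colours are the treatments. The LPS+IFG points of Fst and Crabp2 stand above those of every other treatment at 2 and 4 h, whereas those of Ly6i overlap the IFG points at each time. Those of Ltb4r1 overlap the IFG points at 1 and 4 h and stand just above them at 2 h.

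On GRCm38.p6 the genes lie apart, at chr13:114452262-114458989 for Fst, chr3:87948693-87953372 for Crabp2, chr18:66458604-66465558 for Pmaip1, chr14:55765962-55768492 for Ltb4r1 and chr15:74979534-74983434 for Ly6i. All are protein-coding. The choice itself can be described by the order of the features. Of 11600 features, 94 (0.81%) were at least 2-fold higher with LPS+IFG than with LPS at 4 h with an adjusted p under 0.05, and all 5 genes were among them. Their places by the size of that difference were 3 for Ly6i, 5 for Ltb4r1, 6 for Pmaip1, 9 for Fst and 11 for Crabp2. The features next to Crabp2, the lowest of the 5, were Upp1 above it (2.60) and Iigp1 below it (2.33), against 2.40 for Crabp2, all as differences of log2 ratios. In LPS+IFG less the sum of LPS and IFG, 27 features (0.233%) passed the same rule, with Fst (2.42) and Crabp2 (2.38) in the 2 highest places and Pmaip1 (1.80) in place 4. Acox3 (2.12) lay between Crabp2 and Pmaip1, and an unnamed probe (1.79) just below Pmaip1. Ltb4r1 (0.64) and Ly6i (-0.44) did not pass, so 3 of the 5 genes were chosen on both grounds and 2 on the first alone.

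Fst was near the untreated level with either stimulus alone. At 4 h its LPS+IFG replicates were at 2.69, 2.73 and 2.76, against 0.12 and 0.04 with LPS (the array value of set 1 was missing) and 0.33, 0.38 and -0.02 with IFG. The highest replicate of any other treatment at any time was 0.38, so the 4 h groups lay far apart. At 2 h the LPS+IFG replicates were at 1.13, 0.96 and 0.66, against 0.31, -0.06 and -0.12 with LPS and 0.22, 0.01 and -0.03 with IFG. All 3 were above every replicate of the single treatments. The 2 h difference was 0.87 ± 0.16 (SE) from LPS (limma's moderated test with Benjamini-Hochberg adjustment over 11600 features, adjusted p = 0.00053) and 0.85 ± 0.16 from IFG (limma, adjusted p = 0.00033). Both passed the p threshold but not the 2-fold limit, and the first was called without set 3 of LPS+IFG (1.00) or set 1 of LPS (1.01). Fst was thus the only 1 of the 5 not called against LPS at 2 h. Its excess over the sum of LPS and IFG at 2 h (0.81 ± 0.20, SE) was not called (limma, adjusted p = 0.062), and with the set number as a block it passed on p alone (limma, adjusted p = 0.0037), still under 2-fold. At 1 h the replicates were at 0.25, 0.93 and 0.38 with LPS+IFG, against -0.12, 0.15 and 0.22 with LPS and -0.06, 0.28 and 0.06 with IFG. The LPS+IFG replicates lay above those of LPS but overlapped those of IFG, and the difference from LPS, 0.43 ± 0.16, did not pass (limma, adjusted p = 0.64). Against untreated cells, Fst in LPS+IFG passed on p alone at 1 h (0.52 ± 0.11 SE, limma, adjusted p = 0.0016) and at 2 h (0.92 ± 0.11, limma, adjusted p = 5.9e-08).

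Crabp2 shared this pattern with wider scatter between sets. Its LPS+IFG replicates at 4 h were 2.99, 2.72 and 1.81, against -0.02, 0.14 and 0.21 with LPS and -0.01, 0.11 and -0.04 with IFG. At 2 h they were 2.58, 1.85 and 1.25 with LPS+IFG, against 0.04, -0.23 and 0.37 with LPS and -0.10, 0.27 and -0.07 with IFG. Set 1 was the highest and set 3 the lowest at both times, and the lowest was still above every single-treatment replicate. Crabp2 was higher with LPS+IFG at 2 h than with LPS (1.83 ± 0.34 SE, 3.56-fold, limma, adjusted p = 0.00065) and than with IFG (1.86 ± 0.34, 3.62-fold, limma, adjusted p = 0.00024). It was the only 1 of the 5 genes called above the sum of LPS and IFG at 2 h (1.80 ± 0.42 SE, limma, adjusted p = 0.043), where 0.129% of features were called so. That call was lost in 11 of 19 alternatives, with values between 1.46 and 2.12. At 1 h set 2 alone was high, with LPS+IFG replicates at 0.22, 1.31 and 0.10 against -0.10, 0.29 and 0.19 with LPS. The 1 h differences from LPS (0.42 ± 0.34) and from IFG (0.61 ± 0.38, IFG n = 2) did not pass (limma, both adjusted p = 1.0). Crabp2 was higher at 2 h than at 1 h of LPS+IFG by 1.35 ± 0.34 (limma, adjusted p = 0.013). That call was lost in 6 of 15 alternatives, among them without set 1 or 3 at 1 h (1.19 and 1.13) and without set 1 at 2 h (1.01). The others were treated RNA in Cy3 only (1.34), an equal spread of all arrays (1.09) and only the compared groups fitted (1.35).

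Pmaip1 was the earliest of the 3 genes that exceeded both single treatments. At 1 h its LPS+IFG replicates were 1.19, 1.21 and 1.92, against -0.21, -0.13 and 0.34 with LPS and 0.32, 0.39 and 0.38 with IFG. No LPS+IFG replicate overlapped either group. The differences were 1.44 ± 0.26 (SE) from LPS (2.71-fold, limma, adjusted p = 0.00054) and 1.08 ± 0.26 from IFG (2.11-fold, limma, adjusted p = 0.012). The second call was lost in 5 of 17 alternatives: without set 3 of LPS+IFG (0.84) or set 1 of IFG (1.05), with treated RNA in Cy3 only (0.90), with an equal spread of all arrays (0.98) and with zeros kept (0.97). At 2 h the replicates were 1.29, 0.98 and 1.03 with LPS+IFG, against -0.06, -0.29 and -0.33 with LPS and 0.07, 0.14 and 0.66 with IFG. The difference from LPS was again called (1.33 ± 0.26, limma, adjusted p = 0.0011), and that from IFG (0.81 ± 0.26, limma, adjusted p = 0.046) missed the 2-fold limit. At 4 h the replicates were 2.77, 2.79 and 2.20 with LPS+IFG, against -0.05, -0.01 and -0.58 with LPS and 0.86, 1.27 and 0.86 with IFG. The course over time was therefore uneven, with group means of 1.44 ± 0.42, 1.10 ± 0.17 and 2.59 ± 0.33 (SD, n = 3 each) at 1, 2 and 4 h. The 2 h minus 1 h difference, -0.34 ± 0.26 (SE), did not pass (limma, adjusted p = 0.63). Its excess over the sum of LPS and IFG at 1 h (1.08 ± 0.32) and 2 h (1.04 ± 0.32) did not pass either (limma, adjusted p = 0.77 and 0.29). In 1 of 20 alternatives, all arrays with a dye term, Pmaip1 was called above the sum at both times (1.06 and 1.04, limma, adjusted p = 0.0093 and 0.0048). Its probes 4316 and 6008 gave 2.60 ± 0.38 and 2.57 ± 0.29 (SD, n = 3) for LPS+IFG at 4 h.

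Ltb4r1 followed IFG. At 1 h its replicates were 1.94, 2.26 and 1.57 with LPS+IFG, against -0.04, -0.00 and 0.14 with LPS and 1.58, 1.52 and 1.72 with IFG. At 2 h they were 2.84, 2.40 and 2.75 with LPS+IFG, against 0.02, -0.15 and -0.07 with LPS and 2.31, 1.71 and 2.02 with IFG. At 4 h they were 2.77, 2.22 and 3.53 with LPS+IFG, against -0.10, -0.39 and 0.14 with LPS and 2.05, 1.91 and 2.97 with IFG. LPS+IFG and IFG overlapped at 1 and 4 h but not at 2 h, and LPS stayed apart from both throughout. Within sets 1, 2 and 3, LPS+IFG less IFG was 0.35, 0.74 and -0.14 at 1 h, 0.53, 0.69 and 0.73 at 2 h and 0.71, 0.30 and 0.56 at 4 h, so it was above 0 in every set at 2 and 4 h. Ltb4r1 was higher with LPS+IFG than with LPS by 1.89 ± 0.22 (SE) at 1 h (limma, adjusted p = 1.2e-07) and by 2.73 ± 0.22 at 2 h (limma, adjusted p = 1.5e-11). Its difference from IFG was 0.32 at 1 h (95% confidence interval -0.13 to 0.76) and 0.65 at 2 h (0.21 to 1.09), and neither was called (limma, adjusted p = 1.0 and 0.064). With the set number as a block the 2 h difference passed on p alone (limma, adjusted p = 0.0073), still under 2-fold. IFG alone raised it at 1 h (3.04-fold, limma, adjusted p = 1.4e-09) and at 2 h (4.04-fold, limma, adjusted p = 1.3e-12). Its 3 probes gave 2.76, 2.61 and 3.13 for LPS+IFG and 2.19, 2.07 and 2.68 for IFG at 4 h.

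Ly6i also followed IFG. Its replicates at 1 h were 1.61, 0.99 and 0.73 with LPS+IFG, against -0.06, 0.06 and 0.03 with LPS and 1.46, 1.63 and 0.94 with IFG. At 2 h they were 3.03, 2.65 and 1.82 with LPS+IFG, against -0.21, 0.14 and 0.20 with LPS and 3.40, 3.68 and 2.47 with IFG. At 4 h they were 4.34, 4.20 and 4.12 with LPS+IFG, against 0.10, 0.32 and 0.08 with LPS and 4.11, 4.78 and 4.61 with IFG. LPS+IFG and IFG overlapped at all 3 times, and no LPS replicate was above 0.32. Ly6i was higher with LPS+IFG than with LPS by 1.10 ± 0.24 (SE) at 1 h (limma, adjusted p = 0.0072) and by 2.46 ± 0.24 at 2 h (limma, adjusted p = 2.1e-09). Against IFG it differed by -0.23 at 1 h (95% confidence interval -0.72 to 0.26) and by -0.69 at 2 h (-1.17 to -0.20), neither of which was called (limma, adjusted p = 1.0 and 0.080). Within sets 1, 2 and 3 the 2 h difference was -0.37, -1.03 and -0.66, below 0 in each, and with the set number as a block it passed on p alone (limma, adjusted p = 0.031). It was called lower without set 3 of IFG (-1.04), and over 17 alternatives it ran from -1.57 to 0.23. The call of the 1 h difference from LPS was lost in 5 of 17 alternatives, among them without set 1 of LPS+IFG (0.85) or set 1 of LPS (1.06). Ly6i was higher at 2 h than at 1 h by 1.39 ± 0.24 with LPS+IFG (limma, adjusted p = 0.00020) and by 1.84 ± 0.24 with IFG (limma, adjusted p = 2.6e-05). The first of these calls was lost in 3 of 16 alternatives (lowest value 0.78) and the second in 2 of 16 (lowest value 0.87).

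These Ly6i values come from a single probe, 14609. The other Ly6i probe, 4378, had no value on 10 of 90 arrays and was removed by the filter, and the probes disagree. Probe 4378 was at 0.24 in LPS+IFG, 0.28 in LPS and 0.04 in IFG at 4 h as means over arrays, and its group means ran only from -0.14 to 0.55. With exact zeros kept as values both probes entered, and Ly6i at 1 h of LPS+IFG was at 0.63 in place of 1.11. Probe 14609 also read higher with treated RNA in Cy5 than in Cy3, by a median of 0.67 over the 15 groups. With treated RNA in Cy3 alone both probes entered, and the 1 h difference of LPS+IFG from LPS was 0.47 and not called. On those arrays probe 14609 itself had 1 h means of 0.62 in LPS+IFG and -0.31 in LPS. The Ly6 genes are close relatives, and which of them each probe reads could not be checked without probe sequences.

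**Figure D2:**
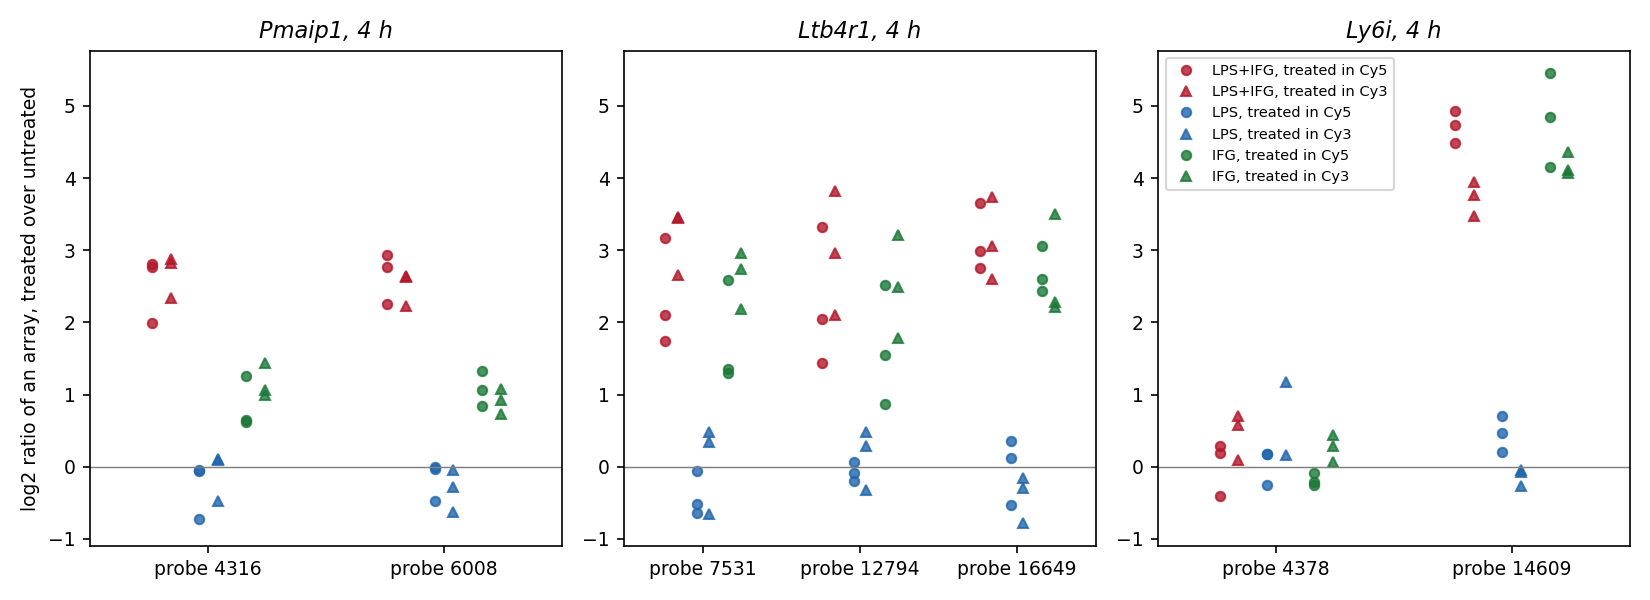
log2 ratio of single arrays (y axis) at 4 h for each probe (x axis) of the 3 genes with several probes, by treatment (colour) and by the dye of the treated RNA (circles Cy5, triangles Cy3). The 2 probes of Pmaip1 and the 3 of Ltb4r1 show the same order of treatments, whereas Ly6i probe 4378 lies between -0.40 and 1.17 in all 3 treatments and probe 14609 lies between 3.48 and 5.45 in LPS+IFG and IFG.

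Counted over the 5 genes, the difference of LPS+IFG from LPS was called higher for 3 at 1 h (Ltb4r1, Pmaip1 and Ly6i), where 0.629% of all features were, and for 4 at 2 h (also Crabp2), where 0.871% were. The median difference of the 5 was 1.10 at 1 h and 1.83 at 2 h, against 0.00 and 0.01 over all features. LPS+IFG against IFG gave another order, with Pmaip1 the only 1 called at 1 h (1.04% of features called higher) and Crabp2 the only 1 at 2 h (1.69%). None of the 5 was called above the sum of LPS and IFG at 1 h, where 0.0862% of features were (limma; 1 of 5, Pmaip1, at an unadjusted p under 0.05). At 4 h, given only as a description, LPS+IFG less IFG was 2.50 for Fst, 2.49 for Crabp2, 1.59 for Pmaip1, 0.52 for Ltb4r1 and -0.28 for Ly6i. These comparisons share the LPS+IFG samples, and their agreement is no separate evidence. Whether the IFG effect in the presence of LPS grew between 1 and 2 h was also tested, and none of the 5 passed (limma; 3 of 5 at an unadjusted p under 0.05; Crabp2 1.41 ± 0.48 and Ly6i 1.36 ± 0.34, SE). The median of the 5 was 0.84, against 0.01 over all features. The share of all features called in that test is not given here, so these counts cannot be set against it.

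**Figure D3:**
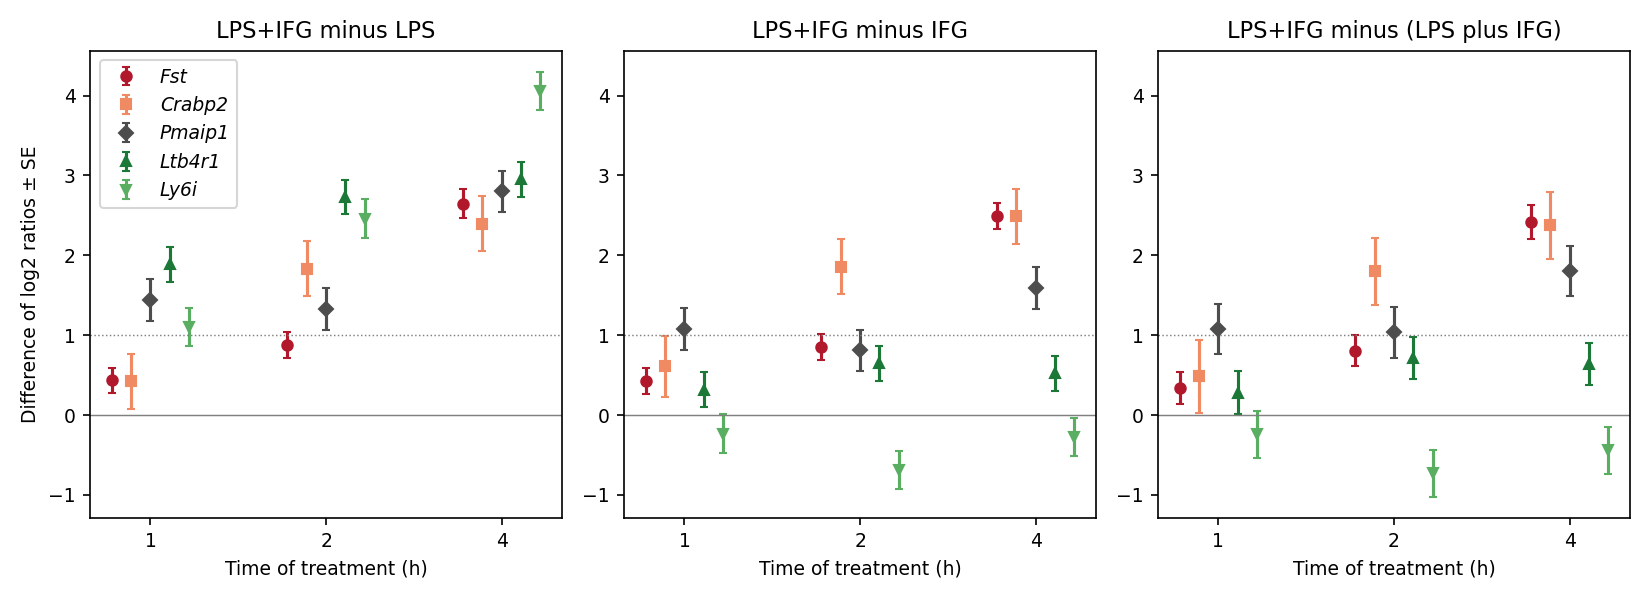
Differences of log2 ratios ± SE (y axis) for LPS+IFG minus LPS, minus IFG and minus the sum of both, at 1, 2 and 4 h (x axis), for the 5 genes; the dotted line marks 2-fold. In the middle panel Fst, Crabp2 and Pmaip1 lie at 1.59 or above at 4 h, while Ltb4r1 (0.52) lies lower and Ly6i (-0.28) lies below 0.

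Each stimulus alone was then set against untreated cells. LPS alone moved none of the 5 genes at 1 or 2 h, where 1.08% and 2.21% of features were called (limma; 0 of 5 at an unadjusted p under 0.05 at either time), and its group means ran from -0.23 (Pmaip1, 2 h) to 0.12 (Crabp2, 1 h). IFG alone raised Ltb4r1 and Ly6i at 1 and 2 h, where 0.353% and 1.06% of features were called higher, and none of the other 3. The Ly6i call at 1 h was lost in 3 of 13 alternatives, at 0.65 in place of 1.34 with treated RNA in Cy3 only, with zeros kept and with no filter. In each of these settings probe 4378 entered and was averaged with probe 14609. At 1 h of IFG probe 14609 itself was at 1.34 over both dyes and at 1.16 in Cy3. Probe 4378 was at -0.04 and 0.14. LPS was below IFG for the same 2 genes at both times, with differences of -1.57 and -2.08 for Ltb4r1 and of -1.33 and -3.15 for Ly6i at 1 and 2 h (limma, adjusted p between 3.1e-12 and 0.00030), where 0.302% of features at 1 h and 0.853% at 2 h were called lower. With LPS+IFG 3 were raised at 1 h and 4 at 2 h, where 1.69% and 3% of features were called higher.

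A second partner of LPS, 2MA, gave small values. No gene of the 5 was called in LPS+2MA against LPS at 1 h (0.069% of features called) or at 2 h (0.0259%), with 1 of 5, Pmaip1, at an unadjusted p under 0.05 each time (limma). Pmaip1 was at 0.69, 0.51 and 1.20 with LPS+2MA at 1 h, against -0.21, -0.13 and 0.34 with LPS. The groups did not overlap, but the difference of 0.80 ± 0.26 (SE) did not pass (limma, adjusted p = 0.98). Against untreated cells LPS+2MA called none of the 5 at 1, 2 or 4 h, where 1.22%, 2.78% and 6.59% of features were called (limma; 1, 1 and 2 of 5 at an unadjusted p under 0.05). It passed on p alone for Pmaip1 at 1 h (0.80 ± 0.18, limma, adjusted p = 0.0034) and at 4 h (0.51 ± 0.18, limma, adjusted p = 0.030) and for Crabp2 at 4 h (0.79 ± 0.24, limma, adjusted p = 0.0098), each under 2-fold. Crabp2 was spread over 1.55, 0.97 and -0.16 in that group, and without set 3 its value was 1.26 and was called. 2MA alone called none of the 5 at 1, 2 or 4 h, where 0.328%, 0.328% and 0.147% of features were called (limma; Pmaip1 at an unadjusted p under 0.05 each time, at 0.41, 0.41 and 0.42).

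The combinations were also compared with each other. LPS+IFG exceeded LPS+2MA for Ltb4r1 (1.87 ± 0.22, SE) and Ly6i (1.12 ± 0.24) at 1 h, where 0.578% of features were called higher (limma, adjusted p = 1.7e-07 and 0.0051). At 2 h it did so for Ltb4r1 (2.64 ± 0.22), Ly6i (2.41 ± 0.24) and Crabp2 (1.49 ± 0.34), where 0.819% were (limma, adjusted p = 3.9e-11, 3.9e-09 and 0.0084). The Crabp2 call was lost in 3 of 16 alternatives, among them without set 1 of LPS+IFG (1.15) or set 3 of LPS+2MA (1.42). The Ly6i call at 1 h was lost in 4 of 17, among them without set 1 of LPS+IFG (0.87) or set 1 of LPS+2MA (1.03). Fst missed the 2-fold limit at 2 h by little (0.996 ± 0.16, 1.99-fold, limma, adjusted p = 8.1e-05). Pmaip1 differed by 0.64 ± 0.26 at 1 h and 0.63 ± 0.26 at 2 h and was not called (limma, adjusted p = 0.71 and 0.42), with overlapping groups at both times. Without set 3 of LPS+2MA the 2 h difference was 1.03 and was called. At 4 h, as a description, LPS+IFG less LPS+2MA was 2.54 for Fst, 1.72 for Crabp2, 2.08 for Pmaip1, 2.90 for Ltb4r1 and 4.16 for Ly6i.

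Over the 15 group means, Fst and Crabp2 correlated at a Pearson r of 0.90, Fst and Pmaip1 at 0.86, and Ly6i and Ltb4r1 at 0.91, against 0.45 for Crabp2 and Ly6i. The 15 means include those that chose the genes, and all r are descriptions. Among 979 named genes with a mean of at least 1 in size in some group, those closest to Fst were Cnn3 (r = 0.93), Gpr33 (0.91) and Adprm (0.89), and those closest to Crabp2 were Cdyl (0.90), Cnn3 (0.87) and Homer1 (0.87). The Spearman rho of these 6 pairs was lower, from 0.24 to 0.61. Cnn3, an actin-binding calponin, was at 1.28 in LPS+IFG at 4 h, against -0.01 in LPS and 0.32 in IFG. Gpr33, an orphan G protein-coupled receptor, was at 1.91 in LPS+IFG at 4 h, against -0.07 in LPS and 0.29 in IFG. The nearest to Pmaip1 were Gpr33 (0.82), Cnn3 (0.81) and Clec7a (0.79), the receptor for fungal beta-glucans. For Ly6i they were Sting1 (0.97), the adaptor that relays cyclic dinucleotide signals, Fgl2 (0.96) and Inpp5b (0.96). For Ltb4r1 they were Cxcl9 (0.98), an interferon-induced chemokine, Inpp5b (0.95) and Irf8 (0.94), a transcription factor induced by interferon gamma. Cxcl9 was at 5.77 in LPS+IFG at 4 h, against 0.49 in LPS and 4.90 in IFG.

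The other genes of these pathways were counted in the same comparison. Of 135 listed genes, 97 were measured, and in LPS+IFG against LPS 1 was called higher at 1 h, none at 2 h and 1 at 4 h, with 2 called lower at 4 h (limma; 4, 8 and 9 of 97 at an unadjusted p under 0.05). Over all features 0.629%, 0.871% and 0.81% were called higher at 1, 2 and 4 h and 0.224% lower at 4 h. Of the activin and follistatin pathway, 26 of 28 genes were measured and none was called in that comparison (limma; 2, 3 and 3 at an unadjusted p under 0.05 at 1, 2 and 4 h). Against untreated cells Tgfb1, a ligand of the same family, rose with LPS+IFG at 2 h (1.02), and its receptor gene Tgfbr2 fell at 2 h (-1.41) and at 4 h (-1.17). With LPS alone Tgfb1 was at 0.95 at 2 h, and Tgfbr2 at -1.16 and -0.69 at 2 and 4 h. Of the retinoic acid pathway, 19 of 28 were measured. Dhrs3, which reduces retinaldehyde to retinol, differed by -1.03 ± 0.18 (SE) between LPS+IFG and LPS at 4 h, at 0.78 in LPS+IFG and 1.81 in LPS. Tgm2, a transglutaminase that retinoic acid induces, rose with LPS+IFG at 2 h (1.09) and at 4 h (1.18) and was at 1.25 and 1.15 with LPS.

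Of the BCL2 family and p53 axis, 22 of 27 were measured and none was called in LPS+IFG against LPS (limma; 0 at an unadjusted p under 0.05 at each time). Against untreated cells the survival genes Bcl2a1a (2.32 and 3.30) and Bcl2a1d (2.27 and 3.23) rose with LPS+IFG at 2 and 4 h, and Bcl2a1b (1.46) at 4 h. They are near-identical copies whose probes may read each other. The pro-apoptotic Bcl2l11 rose at all 3 times (1.63, 2.06 and 1.59), as did Mdm2 (1.58, 1.27 and 1.17), which restrains p53. With LPS alone Bcl2l11 was at 1.94, 2.36 and 1.56, where Pmaip1 was at -0.00, -0.23 and -0.21.

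Of the Ly6 and uPAR family, 14 of 27 were measured, and Ly6f was called higher with LPS+IFG than with LPS at 4 h (1.83 ± 0.18, SE). Ly6f was at 1.94 in LPS+IFG, against 0.11 in LPS and 2.23 in IFG at 4 h, the order seen in Ly6i probe 14609. Whether the Ly6f value and that probe read the same RNA could not be checked, so this likeness is no separate evidence. Lynx1 (3.74, 4.17 and 4.11) and Plaur (2.06, 2.84 and 2.77), the urokinase receptor, rose with LPS+IFG at all 3 times and were, with LPS, at 3.57, 4.21 and 4.52 for Lynx1 and at 1.69, 2.36 and 2.41 for Plaur. Of the leukotriene pathway and chemoattractant receptors, 16 of 25 were measured. Cyp4f14, a fatty acid hydroxylase, was higher with LPS+IFG than with LPS at 1 h by 1.10 ± 0.17. Cysltr1, a receptor for cysteinyl leukotrienes, differed by -1.05 ± 0.24 at 4 h. The complement receptor C3ar1 rose with LPS+IFG at all 3 times (1.40, 1.47 and 1.79) and the formyl peptide receptor Fpr2 at 4 h (2.43), against 0.38, 0.94 and 2.48 for C3ar1 and 2.60 for Fpr2 with LPS.

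Across the arrays, 7.84% to 17.0% of probes carried an exact 0, taken as missing. Ratios cannot show which cells are present. Of 7 macrophage markers on the array, Adgre1, Csf1r, Cd68, Fcgr1 and Cd14 had a value on every array, Mertk on 88.9% and Lyz2 on 3.33%, and 16 markers of other cell types had values on 92.2% to 100% of arrays with no group mean beyond 0.49 in size. The direction of the ratio is likely rather than stated. All 6 measured genes known to rise with LPS and all 4 known to rise with interferon gamma were above 0 at 4 h of their own stimulus, by 2.15 or more.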

How the data were processed

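RNA of treated and time-matched untreated RAW 264.7 cells was hybridised together on 90 two-colour arrays. The authors deposited 1 log2 ratio per probe and array. Each array's median was 0, with the exact zeros that were later taken as missing still counted. The scanner software, normalization and log base are not given in the sources used here. That the scale is log2 rests on the values: the deposited log2 ratios stop at 6.64 in size (100-fold, 14 values). Exact zeros were treated as missing, and the sign was turned on arrays with treated RNA in Cy3. After turning, positive values are taken as higher in treated cells, a likely direction. Arrays of a dye-swapped pair were averaged to 1 replicate. Probes needed a value in 2 of 3 replicates of every group (13711 probes), and probes of a gene were averaged. Gene names came from GEO's platform annotation (13738 probes with 1 gene; the other 2543 had none, or several in 52 cases). One motif searched is not reported here.

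Group means of all 15 groups were fitted by least squares with moderated variances (limma 3.58.1, R 4.3.3), two-sided, with Benjamini-Hochberg adjustment over 11600 features in each of 33 comparisons tested. A feature was called at an adjusted p under 0.05 and at least 2-fold. The fit was tested on simulated data. Alternatives covered dye, scaling, zeros, filters, probes, the fold limit, the groups fitted, a set block and leaving out replicates. The genes and the pathway lists were chosen with earlier results of these data known. Named pathway genes are those called in LPS+IFG against LPS or against untreated cells, and named similar genes are the 3 with the highest Pearson r. The number of arrays limits the precision. Same-numbered sets of compared groups deviated together (correlation over 0.1 in 44 of 45 pairs), the exception being a pair of LPS and IFG at 2 h (-0.031).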

Additional observations from a re-analysis of the deposited data

Results flagged for a closer look

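Crabp2 was above the sum of LPS and IFG in LPS+IFG at 2 h by 1.80 (log2, 95% confidence interval 0.95 to 2.65) in a test of the interaction (limma, adjusted p = 0.043). The labels list lipid binding protein with LPS alone and not with LPS+IFG. An interaction of IFG with LPS therefore cannot be told apart from that difference in the medium. The call was lost in 11 of 19 alternatives, in which the adjusted p ran from 0.00056 to 0.26 over all 19.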

How the results depend on the processing

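No count or single gene changed direction while called. Values here are counts of the 5 genes called in either direction unless said otherwise. Counts are listed for a setting where they moved by more than a set ratio, or to or from 0. An unlisted count may have changed by less. With no fold threshold, LPS+2MA against untreated called 1 at 1 h and 2 at 4 h, and LPS+IFG against IFG 3 at 2 h. Smaller changes there were 5 for LPS+IFG against LPS at 2 h and 4 and 5 for LPS+IFG against untreated at 1 and 2 h. LPS+IFG against LPS+2MA at 2 h called 4, and LPS+IFG at 2 h against 1 h called 3. With a dye term over all arrays, LPS+IFG above the sum called 1 at 1 h (Pmaip1) and 2 at 2 h (Pmaip1 and Crabp2). With treated RNA in Cy5 only, above the sum at 2 h called 0. With treated RNA in Cy3 only, the counts were 0 for LPS+IFG against IFG at 1 h, 1 for LPS+IFG against LPS+2MA, 1 for LPS against IFG and 1 for IFG against untreated at 1 h, 0 above the sum at 2 h, and, for 2 h against 1 h, 0 with IFG and 1 with LPS+IFG. With an equal spread of all arrays, LPS+IFG against IFG called 0 at 1 h and 2 at 2 h (Crabp2 higher, Ly6i lower at -1.57), and LPS+IFG at 2 h against 1 h called 1. Against the sum at 2 h the count stayed 1, but Crabp2 was lost (1.57) and Ly6i was called below the sum (-1.59, limma, adjusted p = 0.013). With only the compared groups fitted, above the sum at 2 h and LPS+IFG at 2 h against 1 h called 0. With exact zeros kept, 1 h counts were 0 for LPS+IFG against IFG and 1 each for LPS+IFG against LPS+2MA, LPS against IFG and IFG against untreated, with 1 for LPS+IFG at 2 h against 1 h. With complete values Fst and Crabp2 left the table, and counts were 0 for LPS+IFG against IFG and above the sum at 2 h, and 1 for LPS+IFG at 2 h against 1 h. With no filter beyond 1 replicate, counts were 1 for LPS against IFG and for IFG against untreated at 1 h and, for 2 h against 1 h, 0 with IFG and 1 with LPS+IFG. With treated RNA in Cy3 only, with exact zeros kept and with no filter, Ly6i probe 4378 entered and was averaged with probe 14609. The Ly6i call in LPS+IFG against LPS at 1 h was lost with treated RNA in Cy3 only (0.47) and with zeros kept (0.59). It was also lost with an equal spread of all arrays (1.04). Apart from the lost members under complete values, the causes were not tested.

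Leaving out 1 replicate gave 0 to 1 for LPS+IFG against IFG at 1 h and 1 to 2 at 2 h, 1 to 2 for LPS+IFG against LPS+2MA at 1 h, 1 to 2 for LPS+IFG at 2 h against 1 h, 0 to 1 above the sum at 2 h and 0 to 1 for LPS+2MA against untreated at 4 h. It also gave 2 to 3 at 1 h and 4 to 5 at 2 h both for LPS+IFG against LPS and for LPS+IFG against untreated, and 2 to 4 for LPS+IFG against LPS+2MA at 2 h. Testing each probe on its own changed none of 31 counts. Only probes that passed the filter were used there, so Ly6i probe 4378 took no part. For Fst, Crabp2 and Ly6i that left 1 probe each, and their calls could not change. With the set number as a replicate block, 12 of 12 counts and 28 of 28 single-gene calls were as without it, Fst in LPS+IFG against LPS+2MA at 1 h passed on p alone (0.50, limma, adjusted p = 0.025), and Crabp2 above the sum at 2 h was 1.80 (limma, adjusted p = 0.0055). Values from 1 probe (Fst, Crabp2, Ly6i) have no second probe behind them.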
